A study of Mus musculus with 12 samples.

Results

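The genes Abca5, Abca6, Abca9, Abca8a and Abca8b lie side by side on mouse chromosome 11 and encode lipid transporters of the ABCA family. They were taken by name from the deposited FPKM tables of 2 brain regions, which makes 5 of 17990 measured genes. They had been chosen from how they differed between knockout and control libraries in each region, Abca9 because it went in opposite directions. Their differences between knockout and control, and between the regions, are therefore given as a description with no test.

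The study asked how loss of Dpy30, a subunit shared by the complexes that methylate histone H3 at lysine 4, affects postnatal neural stem cells. RNA was sequenced from the dentate gyrus (DG), the hippocampal region where granule neurons are made after birth, and from the subventricular zone (SVZ), which lines the lateral ventricle. Per the labels, both hold neural stem and progenitor cells and their neighbours, so these are bulk tissue samples. Control mice were hGFAP/+;Dpy30F/+, carrying 1 F allele of Dpy30 beside a wild-type allele, and knockout (KO) mice were hGFAP/+;Dpy30F/-, carrying 1 F allele beside an allele the labels write as -. All 4 groups thus share the hGFAP driver and an F allele. The sources used here give no age, no pooling of animals and no account of the cells in which the driver acts. Each group held 3 libraries, called a, b and c in the order of their table columns, and nothing says that they came from separate animals. The p-values below therefore take the spread of 3 such libraries as the error, and some of it may be technical.

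ABCA proteins are large membrane proteins that use ATP to move lipids across or out of membranes. Abca1 passes cholesterol and phospholipid to lipid-free apolipoproteins, and in the brain such efflux from glia supplies lipid to neurons. The chromosome 11 genes form a subfamily of their own that arose by tandem duplication and is less well understood. ABCA5 resides in late endosomes and lysosomes and has been linked to cholesterol efflux. Human ABCA8 exports cholesterol and has been tied to sphingomyelin production in oligodendrocytes, and mice carry a pair of copies, Abca8a and Abca8b. Human ABCA6 and ABCA9 respond to cholesterol load in macrophages.

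All 5 genes are on the minus strand in GRCm38, so transcription runs from Abca5 towards Abca8b. In the GENCODE vM21 annotation Abca5 (ENSMUSG00000018800.14) spans chr11:110269369-110337716, Abca6 (ENSMUSG00000044749.13) spans chr11:110176820-110251776 and Abca9 (ENSMUSG00000041797.7) spans chr11:110100749-110168196. Abca8a (ENSMUSG00000041828.15) spans chr11:110025634-110095978 and Abca8b (ENSMUSG00000020620.14) spans chr11:109932190-109995845. Together they cover 405.5 kb. The next measured coding genes are Map2k6, a stress kinase gene 61.4 kb beyond Abca5, and Fam20a, a secretory pathway gene 210 kb beyond Abca8b. An antisense gene, Gm11697, shares exons with Abca8b. The sources used here do not say that the counting kept the strand, so reads of the pair cannot be told apart.

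Promoter sequences are shown because Dpy30's complexes are known to act largely at CpG-rich promoters, and because the 4 genes with a RefSeq promoter differ widely in that feature. Each runs 5′ to 3′ on the minus strand, from 250 bases before to 50 bases after the annotated start (RefSeq, GRCm38.p6), with every CG dinucleotide in capitals. The windows are chr11:110337667-110337966 for Abca5, chr11:110168104-110168403 for Abca9, chr11:110095888-110096187 for Abca8a and chr11:109995796-109996095 for Abca8b.
Abca5: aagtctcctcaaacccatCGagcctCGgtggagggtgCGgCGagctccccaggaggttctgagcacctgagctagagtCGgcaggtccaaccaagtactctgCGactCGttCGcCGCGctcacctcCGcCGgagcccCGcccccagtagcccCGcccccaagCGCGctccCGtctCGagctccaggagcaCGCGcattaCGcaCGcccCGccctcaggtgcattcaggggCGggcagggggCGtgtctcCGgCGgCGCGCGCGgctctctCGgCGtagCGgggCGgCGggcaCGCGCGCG
Abca9: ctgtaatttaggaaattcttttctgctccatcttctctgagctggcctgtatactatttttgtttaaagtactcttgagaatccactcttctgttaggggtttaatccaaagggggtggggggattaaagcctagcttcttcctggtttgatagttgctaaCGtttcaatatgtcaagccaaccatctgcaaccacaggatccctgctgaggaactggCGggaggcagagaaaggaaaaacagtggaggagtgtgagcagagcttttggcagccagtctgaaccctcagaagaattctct
Abca8a: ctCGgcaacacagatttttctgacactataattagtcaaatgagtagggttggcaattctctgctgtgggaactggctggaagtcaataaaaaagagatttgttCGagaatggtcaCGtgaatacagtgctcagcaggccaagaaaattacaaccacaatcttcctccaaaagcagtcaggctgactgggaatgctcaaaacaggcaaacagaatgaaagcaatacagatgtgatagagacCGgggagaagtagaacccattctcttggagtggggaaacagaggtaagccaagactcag
Abca8b: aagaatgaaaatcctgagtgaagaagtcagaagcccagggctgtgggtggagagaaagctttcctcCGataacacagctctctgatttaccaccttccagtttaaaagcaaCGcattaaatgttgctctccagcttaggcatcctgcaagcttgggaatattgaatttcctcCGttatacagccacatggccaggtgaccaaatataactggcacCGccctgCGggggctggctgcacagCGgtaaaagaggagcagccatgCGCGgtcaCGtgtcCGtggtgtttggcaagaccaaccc

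The Abca5 window held 40 CG dinucleotides at a GC content of 72.3%, and 3.91% of 32851 mouse promoters of the same length hold at least as many. Its ratio of observed to expected CG was 1.02. The Abca9 window held 2, with a ratio of 0.131, and 23.3% of promoters hold at most as many. Abca8a had 4 and Abca8b had 10, against a median of 7 over all promoters, of which 94.6% hold at least 1. CG reads the same on both strands. Thus Abca5 was the one CpG-rich start of these 4, and Abca9 the poorest. These are letters in a window and no measurement of binding or histone marks.

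Dpy30 itself was 8.43, 8.38 and 10.1 FPKM in DG control libraries a, b and c and 6.22, 6.89 and 5.68 in the KO libraries. In the SVZ it was 7.73, 8.25 and 9.43 in controls and 8.83, 5.04 and 4.87 in KO libraries. The DG groups did not overlap (exact permutation test, two-sided p = 0.1, the smallest that 3 against 3 libraries allow), whereas those of the SVZ did (exact p = 0.3). The library labelled SVZ KO a went against its label, and SVZ results are given with and without it. FPKM are fragments per kilobase of transcript, corrected for library size, here with the authors' scaling between libraries and summed over the transcripts of a gene. Steps in low values put the depth behind 1 FPKM at 26.6 to 65.9 reads for each kb of transcript. DG KO libraries were deeper than DG controls, at 48.5 to 65.9 against 26.6 to 42.2. By that estimate Abca5 rested on about 557 to 2618 reads a library, Abca8b on 270 to 932, Abca9 on 152 to 656, Abca8a on 27.3 to 704 and Abca6 on 15.6 to 66.0. Markers of other tissue moved among the DG libraries: the summed level of 9 genes of the SVZ lineage and striatum was 54.9, 411.9 and 34.0 FPKM in controls and 46.2, 197.0 and 414.3 in KO libraries. The summed level of 6 granule neuron markers was 27.3 to 52.5 FPKM in DG controls and 19.2 to 25.8 in DG KO libraries, against 27.4 to 34.1 in SVZ controls, in a table normalized separately.

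Abca9 was the gene of the cluster whose groups separated. In the DG it was 1.10, 0.897 and 0.915 FPKM in control libraries and 1.56, 1.76 and 1.77 in KO libraries. Every KO library lay above every control. The means were 0.971 ± 0.113 (SD, n = 3) and 1.70 ± 0.122 (SD, n = 3), a ratio of 1.75, and the log2 difference was 0.45 with an SE of 0.09 on the log2(FPKM + 1) scale. That scale understates differences of genes as low as this one.

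In the SVZ the order was the other way round. Abca9 was 1.58, 1.42 and 1.60 FPKM in control libraries and 0.858, 0.959 and 0.946 in KO libraries, with every KO library below every control. Mean levels were 1.53 ± 0.0989 (SD, n = 3) and 0.921 ± 0.0548 (SD, n = 3), the control mean being 1.67 times the KO mean, and the log2 difference was -0.40 with an SE of 0.10. Without library KO a the log2 difference was -0.38 with an SE of 0.10. The library whose Dpy30 stood at the control level thus had the lowest Abca9 of the SVZ. The difference between the tissues, SVZ minus DG, was -0.85 on the log2 scale.

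Of the 5 genes, 4 in the DG and 3 in the SVZ averaged at least 0.5 FPKM, the minimum for the fit over all genes. Abca6 was under it in both tissues and Abca8a in the SVZ. Abca9 was the single member without overlap in either tissue, which is 1 of 5. Over all genes fitted, 33.7% of 15454 did not overlap in the DG (25.9% higher in KO and 7.82% lower) and 15.6% of 15159 in the SVZ (7.86% higher and 7.78% lower). Genes that were higher in every DG KO library and lower in every SVZ KO library made up 1.41% of the 14922 genes fitted in both, or 210 genes, and 2.08% went in opposite directions either way. Since Abca9 was chosen for this pattern, nothing is read from that share. In bulk tissue, fewer cells that express a gene and less RNA of it per cell cannot be told apart.

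**Figure D1:**
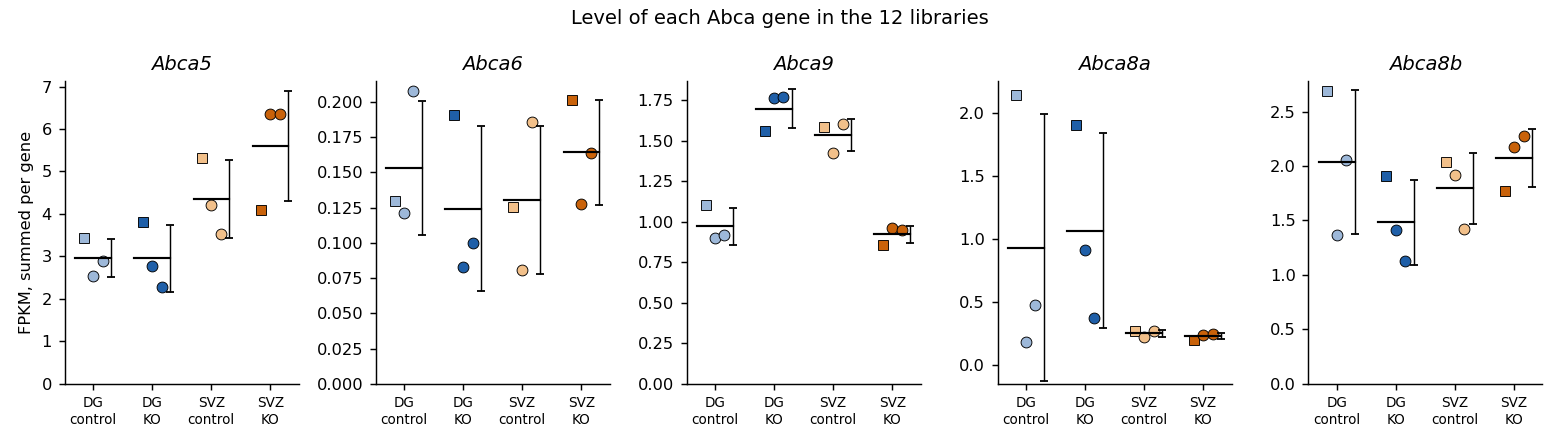
FPKM of each gene (vertical axis, linear) in the 3 libraries of each group (horizontal axis); squares are library a, circles b and c, lines the group means and bars the SD. Abca9 lies between 1.56 and 1.77 in the DG KO libraries and between 0.897 and 1.10 in DG controls, and in the opposite order in the SVZ, while the other genes overlap between control and KO in both tissues.

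Abca5, the lysosomal member, had the highest level of the cluster in every group. Its DG values were 3.43, 2.54 and 2.90 FPKM in control libraries and 3.82, 2.77 and 2.28 in KO libraries. The means were equal to 3 digits, at 2.96 ± 0.448 and 2.96 ± 0.787 (SD, n = 3 each), with a log2 difference of -0.01 and an SE of 0.16. SVZ controls had 5.33, 4.20 and 3.52 FPKM and SVZ KO libraries had 4.10, 6.35 and 6.34. Library KO a lay among the controls here, and the other KO libraries lay above all of them. The log2 difference was 0.30 with an SE of 0.19, and 0.47 with an SE of 0.16 without KO a.

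Abca8b, the more abundant copy of the Abca8 pair, ran in parallel with Abca5. In the DG it was 2.69, 1.37 and 2.06 FPKM in control libraries and 1.90, 1.41 and 1.13 in KO libraries, with overlap. The log2 difference was -0.28 with an SE of 0.19. In the SVZ it was 2.04, 1.92 and 1.43 FPKM in controls and 1.77, 2.18 and 2.28 in KO libraries. The log2 difference there was 0.14 with an SE of 0.13, and 0.21 with an SE of 0.13 without KO a. Control and KO libraries overlapped in each tissue.

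Abca8a varied most between libraries of one group. Its DG values were 2.14, 0.183 and 0.477 FPKM in control libraries and 1.90, 0.914 and 0.379 in KO libraries. The highest control was 11.7 times the lowest, and the highest KO library 5.02 times the lowest. Among 5336 genes averaging 0.5 to 4 FPKM in DG controls the median of that ratio was 1.40, and 0.843% of them had one as large; among KO libraries the median was 1.36 and 1.45% reached that of Abca8a. The value came from 3 transcript rows, and all 3 were highest in library a and lowest in library b among the controls. The first row, ENSMUST00000046223.13, gave 1.56, 0.0625 and 0.297 FPKM there. The rows are transcripts of 1 gene, with lengths of 5614, 5619 and 5617 bases. How reads were divided among them is not known, so their shared order is not independent evidence. In the SVZ the gene was low and even, at 0.222 to 0.271 FPKM in controls and 0.204 to 0.248 in KO libraries. The DG log2 difference of 0.16 had an SE of 0.42 and changed sign, to values down to -0.13, when library control b or KO a was left out.

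Abca6 was near the limit of detection throughout. Its DG values were 0.130, 0.121 and 0.208 FPKM in controls and 0.191, 0.0826 and 0.0996 in KO libraries. SVZ controls had 0.125, 0.0805 and 0.186 FPKM, and KO libraries 0.201, 0.127 and 0.164. Groups overlapped in both tissues, and counting error alone was about 24.3% of the lowest DG value. Some sequence was shared between copies: of the 50-base stretches of annotated Abca8a transcript, 1.82% also occurred in Abca8b, and 0.250% of those of Abca6 occurred in Abca9. The other pairs shared 0. Only exact matches were counted, and the effect of shared reads on these values was not tested.

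Compared per length, levels in DG controls ran from Abca5 through Abca8b and Abca9 to Abca8a and Abca6. Ranges of Abca5 and Abca8b overlapped, as did those of Abca9 and Abca8a and of Abca8a and Abca6, whereas Abca8b lay above Abca9 in every library. In DG KO libraries Abca9 came second, above Abca8b, but their ranges overlapped. SVZ controls had the order Abca5, Abca8b, Abca9, Abca8a, Abca6, with overlap between Abca8b and Abca9 only. SVZ KO libraries kept that order with no overlap between neighbours. With the highest transcript row of each gene in place of the sum, Abca8a fell behind Abca6 in SVZ KO libraries. By summed levels, the order of the means thus differed in DG KO libraries only, for Abca9 and Abca8b, whose ranges overlapped there. That change rests on the values by which Abca9 was chosen, and nothing is read from it.

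Library by library, Abca5, Abca8a and Abca8b tended to be high or low together. Each value was taken on the log2(FPKM + 1) scale as its deviation from the mean of its group, so that tissue and genotype were removed, and 10 pairs of genes were compared over the 12 libraries. For Abca5 and Abca8b, Pearson's r was 0.84 and Spearman's rho 0.83, each with p = 0.0015 by exact permutation within groups and adjusted p = 0.015 over the 10 pairs. Without the 2 libraries farthest in Abca5, SVZ KO a and DG KO a, r was 0.84. It was 0.90 within the DG libraries and 0.91 within those of the SVZ. Of all genes ranked, 1.32% had an r with Abca8b and 2.57% an r with Abca5 as high as that of the pair.

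For Abca8a and Abca8b, r was 0.83 (exact permutation p = 0.037, adjusted p = 0.12) and rho was 0.78 (exact permutation p = 0.032, adjusted p = 0.16), and neither passed the threshold of 0.05 after adjustment. Without DG control a and DG KO a, the libraries farthest in Abca8a, r was 0.68, and within the SVZ, where Abca8a was low, it was 0.17. For Abca5 and Abca8a, r was 0.60 with an exact permutation p of 0.0062 and an adjusted p of 0.031, but rho was 0.57 with an adjusted permutation p of 0.17. For Abca9 no relation passed: over the 12 libraries its r with the other genes lay between -0.31 and 0.26, with an adjusted permutation p of 0.89 for each. Within 1 tissue (6 libraries) r was as high as 0.97, with Abca8a in the SVZ, and as low as -0.65, with Abca6 in the DG, and these were not tested. Abca9 varied little within groups, with an SD of 5.95% to 11.7% of its mean. Its counting error was estimated at 3.91% to 8.10%, so little variation was left in which a relation could show. The points share library depth, tissue makeup and scaling.

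**Figure D2:**
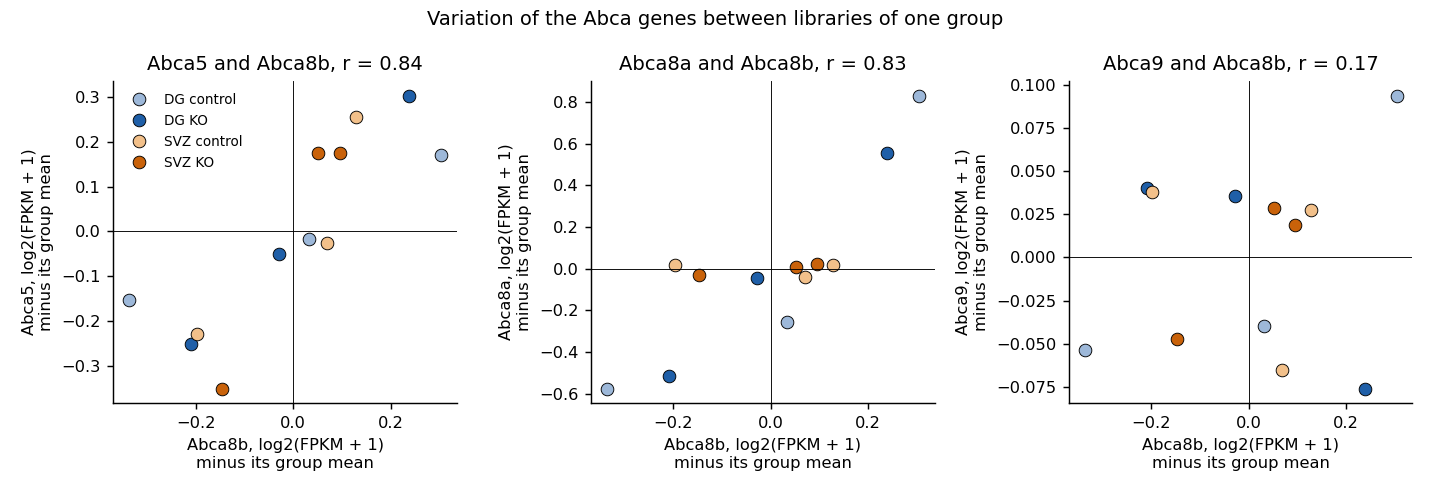
Each point is 1 of the 12 libraries, coloured by group; both axes give log2(FPKM + 1) minus the mean of the library's group. Abca5 and Abca8a rise along Abca8b (r of 0.84 and 0.83, the second resting on DG libraries). Abca9, which varied within groups by not much more than its counting error, has an r of 0.17.

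In the DG the libraries low in Abca8b were those high in markers of the SVZ lineage and striatum. Control b, with the lowest Abca8b of the controls, had a summed marker level of 411.9 FPKM against 54.9 and 34.0 in the other controls. Among the KO libraries, a had 1.90 FPKM of Abca8b at a sum of 46.2, b had 1.41 at 197.0 and c had 1.13 at 414.3. Microglial markers moved the same way, at 158, 219.8 and 186.0 FPKM in DG controls and 164.8, 217.9 and 234.7 in KO libraries. Myelin markers were also highest in control b, at 2484 FPKM against 252.4 and 744.3, but were even in KO libraries, at 136.3 to 141.8. Over the 12 libraries, from group means, Abca8b had r = -0.81 with the mean log2 level of the SVZ lineage and striatum markers. This did not pass (exact permutation p = 0.032, adjusted p = 0.17 over the 60 relations described below). What part any of these markers had in the variation of Abca5, Abca8a and Abca8b was not tested.

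The genes with levels most like each member were ranked over the 12 libraries by Pearson's r of log2(FPKM + 1) from the tissue mean, among 11636 genes averaging at least 2 FPKM in both tissues. For Abca5 they were Wdr37, Slc4a1ap, Snx12, Rgs17 and Golga3, with r from 0.93 to 0.97. Wdr37, the closest, was 15.2, 14.7 and 12.7 FPKM in SVZ controls and 13.6, 16.6 and 17.1 in SVZ KO libraries, of which KO a was again the lowest. For Abca8b they were Wdr7, Pls3, Magee1, Gm8099 and Napb, with r from 0.94 to 0.96. When group means were removed as well, r stayed at 0.93 to 0.99 for the first set and at 0.92 to 0.96 for the second.

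Abca9 was unlike the others here. Its closest genes were Rpl34-ps1, Tm4sf1, Spata24, Mycbp and Aldh6a1, with r from 0.90 to 0.93, and with group means removed r dropped to values from 0.11 to 0.75. Tm4sf1, a membrane protein gene, was 4.70 to 5.12 FPKM in DG controls and 5.56 to 7.90 in DG KO libraries, then 5.16 to 5.28 in SVZ controls and 3.38 to 4.04 in SVZ KO libraries. Aldh6a1, a mitochondrial enzyme of valine breakdown, was 8.82, 8.98 and 10.2 FPKM in DG controls and 13.3, 13.3 and 14.5 in DG KO libraries. In the SVZ its controls were 18.1, 14.9 and 17.2 FPKM and its KO libraries 12.7, 14.2 and 14.2. These genes thus shared with Abca9 the group differences by which they were ranked, and less of the variation between libraries of one group. For Abca9 that variation was not much larger than its counting error, which limits any r with group means removed.

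Of 11 other ABCA genes, 7 were in the tables, 5 were fitted in the DG and 4 in the SVZ, and 0 passed in either direction in the DG, in the SVZ, or in the SVZ without KO a (limma, adjusted p under 0.05). Over all genes 0.699% passed in the DG, 0.0066% (1 gene) in the SVZ and 8.69% in the SVZ without KO a; of the DG genes 0.336% passed as higher in KO and 0.362% as lower. At an unadjusted p under 0.05, 4092 genes stood out in the DG and 1914 in the SVZ. The DG calls were 52 higher and 56 lower in KO, but 32 and 99 after median centring and 43 and 86 after quantile normalization. The median log2 difference of the fitted ABCA genes was -0.20 in the DG and -0.06 in the SVZ, beside 0.09 and 0.03 over all genes.

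Abca1, the efflux transporter, was 3.56, 4.06 and 4.49 FPKM in DG controls and 5.45, 6.76 and 7.76 in DG KO libraries. These groups did not overlap, as for 25.9% of all genes in that direction, and the log2 difference of 0.60, with an SE of 0.14, did not pass (limma adjusted p = 0.071). In the SVZ its values overlapped, at 4.59 to 4.92 FPKM in controls and 2.94, 5.51 and 6.04 in KO libraries, KO a being the lowest. The test of the difference between tissues gave an adjusted limma p of 0.28 for Abca1, and 0.0335% of all genes passed it.

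Abca2, an endolysosomal transporter of myelinating glia and neurons, was 27.3 to 32.2 FPKM in DG controls and 24.2 to 27.0 in KO libraries (limma adjusted p = 0.22). Abca3, which packs surfactant lipid in lung, was 21.7 to 23.3 FPKM in DG controls and 17.7 to 20.5 in KO libraries (limma adjusted p = 0.14). Abca7, linked to Alzheimer's disease risk in people, was 2.53 to 3.20 FPKM in DG controls and 1.85 to 2.19 in KO libraries (limma adjusted p = 0.12). All 3 lay lower in every DG KO library than in any control, as did 7.82% of all genes, and overlapped in the SVZ. Abca4, the retinoid transporter of photoreceptors, was 0.0956 to 0.585 FPKM in DG controls and 0.327 to 1.70 in KO libraries.

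Abca12, the skin barrier lipid transporter, and Abca17 were below the minimum of 0.5 FPKM and were not fitted. Abca12 was 0.0119 to 0.0322 FPKM in DG controls and 0.512, 0.261 and 0.138 in KO libraries. In the SVZ it was 0.00951 to 0.0223 in controls, 0.0145 in KO a, and 0.181 and 0.260 in KO b and c. Abca17 was 0.0180 to 0.0421 FPKM in DG controls and 0.394, 0.171 and 0.140 in KO libraries. Its SVZ level was 0.0104 to 0.0445 in controls, 0.00565 in KO a, and 0.122 and 0.137 in KO b and c. For both genes the 5 KO libraries other than SVZ KO a lay above all controls. Abca6, also under the minimum but higher than both in controls, at 0.0805 to 0.208 FPKM, showed no such order. In the DG 25.9% of fitted genes were higher in every KO library. No share was taken for genes under the minimum, and nothing is read from the order.

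**Figure D3:**
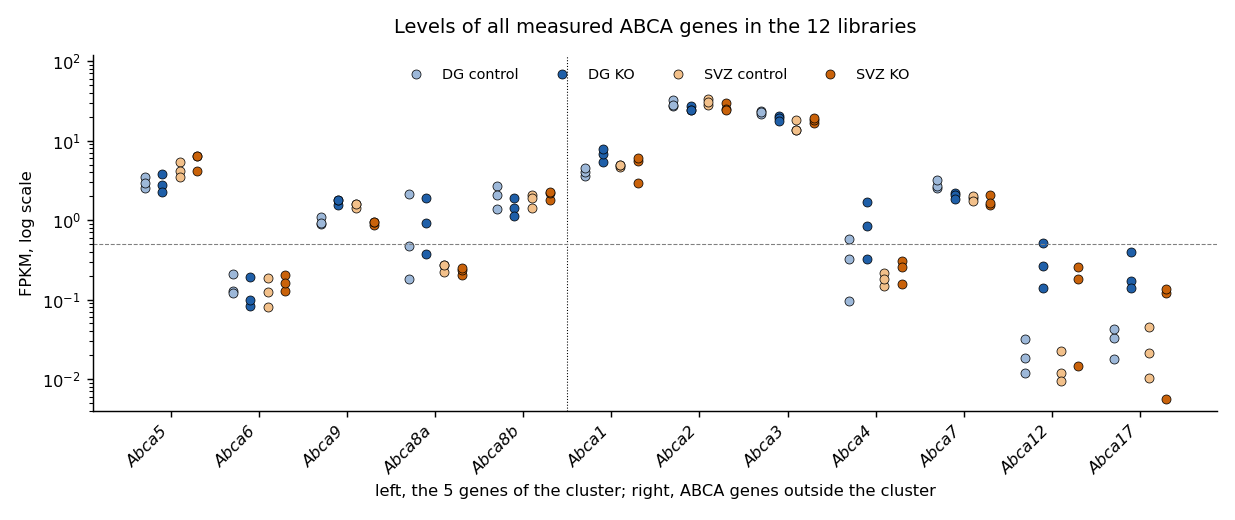
FPKM on a log axis of the 5 cluster genes (left of the dotted line) and the 7 other measured ABCA genes (right), each point a library, coloured by group; the dashed line is the minimum of 0.5 FPKM. Abca12 and Abca17 lie under 0.05 FPKM in controls and in SVZ KO a and between 0.122 and 0.512 in the other KO libraries, and the cluster genes span a range from Abca6 at 0.0805 to Abca5 at 6.35.

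On the same chromosome, 18 further genes were fitted, with start sites as far as 3584 kb from that of Abca9. Their median log2 difference was 0.12 in the DG and -0.08 in the SVZ. None of the 18 passed in either tissue (limma, backgrounds of 0.699% and 0.0066%). Without SVZ KO a, 3 passed as higher and 1 as lower, against 4.21% and 4.48% of all genes. Slc39a11, a zinc transporter gene, rose from 2.69, 3.54 and 3.21 FPKM to 7.73 and 7.27 in KO b and c (limma adjusted p = 0.0079), with 2.67 in KO a. Sstr2, a somatostatin receptor gene, rose from 7.34 to 10.5 FPKM in controls to 19.3 and 16.7 (limma adjusted p = 0.024). The start sites of Slc39a11 and Sstr2 lie 3482 and 3451 kb from that of Abca9, far outside the cluster.

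Fam20a, the nearest measured gene below Abca8b, rose from 4.46, 5.82 and 5.43 FPKM to 8.99 and 8.63 without KO a (limma adjusted p = 0.029), and KO a was at 4.50. Kcnj2, an inward rectifier potassium channel gene, fell from 3.54, 1.93 and 2.67 FPKM to 0.977 and 1.26 (limma adjusted p = 0.0498). Map2k6, the flanking gene beyond Abca5, was 2.86 to 3.03 FPKM in SVZ controls and 2.60 to 3.24 in KO libraries. Its DG log2 difference was -0.37 with an SE of 0.18. Sox9, a glial and stem cell transcription factor, had a DG log2 difference of 0.43 with an SE of 0.15 (limma adjusted p = 0.14). The start sites of Kcnj2 and Sox9 lie 898 and 2614 kb from that of Abca9. Neither flanking gene had the pattern of Abca9, with opposite differences in the tissues and no overlap.

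**Figure D4:**
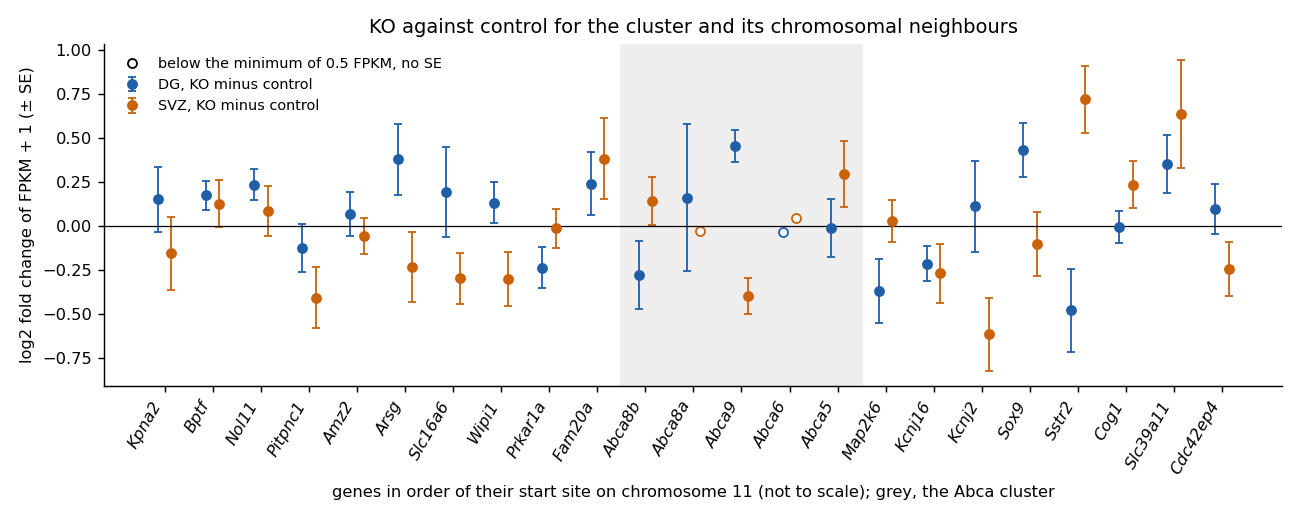
Log2 difference of FPKM + 1, KO minus control, with its SE (vertical axis), for the 5 cluster genes (grey area) and 18 neighbours in order along chromosome 11 (spacing not to scale); blue is DG, orange is SVZ, and open points have no SE. Start sites of the neighbours reach 3584 kb from that of Abca9. Abca9 stands at 0.45 and -0.40, and the points on either side of it lie nearer to 0 or have a wider error.

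Other ABC transporters, and genes of lipid efflux and of sphingolipid synthesis and turnover, were counted in lists chosen for this report. Of 29 ABC transporters of the other subfamilies, 25 were in the tables and 20 were fitted in each tissue, and 0 passed in the DG, the SVZ or the SVZ without KO a. The farthest in the DG were Abcc8, the sulfonylurea receptor, with a log2 difference of -0.72 (SE 0.20, limma adjusted p = 0.096) and Abcb9, a lysosomal peptide transporter, with -0.55 (SE 0.15, limma adjusted p = 0.089). In the SVZ they were Abcb1a, the P-glycoprotein of the blood-brain barrier, with -0.50 (SE 0.16, limma adjusted p = 0.37), and Abcc10 with 0.33 (SE 0.17, limma adjusted p = 0.45).

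Of 14 genes of cholesterol and phospholipid efflux, 13 were fitted and 0 passed in either tissue. Without SVZ KO a, 2 of 13 fell and 0 rose, beside 4.48% lower and 4.21% higher over all genes. Apod, a glial lipid carrier, was 44.3, 21.6 and 37.4 FPKM in SVZ controls and 7.23 and 9.80 in KO b and c (limma adjusted p = 0.016), with 22.8 in KO a. Clu, the apolipoprotein clusterin, went from 307.8, 176.2 and 329.1 FPKM to 102.7 and 119.4 (limma adjusted p = 0.038). Glial markers were lower in KO b and c as well. The summed level of 10 astrocyte markers was 884 to 1178 FPKM in SVZ controls, 825 in KO a, and 511.7 and 543.3 in KO b and c. That of 14 myelin markers was 3103 to 6263 FPKM in SVZ controls, 4065 in KO a, and 290 and 220 in KO b and c. The part of either list in the result was not tested. Lcat, which esterifies cholesterol, had a DG log2 difference of -0.58 with an SE of 0.28 (limma adjusted p = 0.23).

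Of 16 genes of sphingolipid synthesis and turnover, 15 were fitted. In the DG 1 passed, against 0.362% of all genes lower in KO: Degs1, the desaturase that makes ceramide, fell from 23.1, 23.1 and 23.5 FPKM to 15.0, 16.5 and 15.5 (log2 difference -0.54, SE 0.07, limma adjusted p = 0.042). It did not pass when any 1 DG library was left out. Without SVZ KO a, Cers2, the ceramide synthase of very long chains in myelin, and Smpd3, a neutral sphingomyelinase, fell, which is 2 of 15 beside 4.48% of all genes. Cers2 went from 28.7, 22.9 and 27.1 FPKM to 10.4 and 8.79 (limma adjusted p = 0.0045), and Smpd3 from 17.8, 24.4 and 19.7 to 12.4 and 12.6 (limma adjusted p = 0.038). Myelin markers moved with them: their summed level was 3103 to 6263 FPKM in SVZ controls, 4065 in KO a, and 290 and 220 in KO b and c. Their part in the result was not tested. Abca8b, whose human counterpart has been tied to sphingomyelin, was 2.18 and 2.28 FPKM in those 2 libraries and thus above all 3 controls.

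Cell type markers that differed between groups are given here beside Abca9. All 12 microglial markers had a negative log2 difference in the SVZ (median -0.55) and 10 of 12 a positive one in the DG (median 0.12). Over all fitted genes the medians were 0.03 in the SVZ and 0.09 in the DG, so the microglial DG median was near background. The summed level of the microglial markers was 221.7 to 302.4 FPKM in SVZ controls and 159 to 200.9 in SVZ KO libraries. In the DG it overlapped, at 158 to 219.8 in controls and 164.8 to 234.7 in KO libraries. Of the 12, 0 were under 0.1 FPKM in any group. Without SVZ KO a, 6 of 12 passed as lower (limma), beside 4.48% of all genes.

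Fibroblast markers had differences of opposite sign in the tissues. All 10 had a positive log2 difference in the DG (median 0.82) and 8 of 9 fitted a negative one in the SVZ (median -0.41). The summed level was 156.0, 55.2 and 79.4 FPKM in DG controls and 151.9, 159.1 and 160.5 in DG KO libraries, led by Igf2, Mgp and Dcn. In the SVZ the sums were 34.3 to 50 FPKM in controls and 20.5 to 34.5 in KO libraries. Of the fibroblast markers, 0 passed in either tissue (limma).

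Ependymal markers had a median log2 difference of 0.65 in the DG (6 of 6 positive) and -0.27 in the SVZ (5 of 6 negative). Their sums were 8.6 to 13.7 FPKM in DG controls and 11.6 to 30.4 in DG KO libraries, and 7.3 to 14.3 in SVZ controls and 7.3 to 8.4 in SVZ KO libraries. Endothelial markers had medians of 0.11 and -0.29, the first near the DG median of 0.09 over all genes, and pericyte markers 0.16 and -0.35. Markers of the SVZ lineage and striatum had 0.40 and -0.27, and those of the choroid plexus 0.21 and -0.05. Medians were negative in both tissues for astrocyte (-0.45 and -0.56), oligodendrocyte precursor (-0.06 and -0.21) and myelin markers (-1.60 and -1.99). Neuron markers had medians of -0.49 in the DG and 0.08 in the SVZ, and granule neuron markers -0.74 and 0.02. In the DG, 1 of 10 astrocyte, 1 of 10 neuron and 2 of 9 precursor markers passed as lower in KO (limma), beside 0.362% of all genes. With any 1 DG library left out, 0 astrocyte and 0 neuron markers passed. Of the precursor markers 1 passed without control a, and 0 without any other library. In the SVZ 0 markers of any list passed (limma), beside 0.0066% of all genes. Without SVZ KO a, all 14 myelin markers passed as lower, as did 5 of 10 astrocyte markers, 2 of the SVZ lineage and striatum and 1 each of the precursor, neuron, pericyte and ependymal lists, beside 4.48% of all genes. In that comparison 1 granule neuron marker passed as higher, and 0 endothelial, fibroblast and choroid plexus markers passed. The part of these markers in the pattern of Abca9 was not tested.

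Within groups, the mean log2 level of each of the 12 marker lists was set beside each of the 5 genes over the 12 libraries, as deviations from group means, which makes 60 relations. None passed after adjustment over the 60, the lowest adjusted p by exact permutation within groups being 0.093. For Abca9 the highest was with ependymal markers, with r = 0.82 (exact permutation p = 0.019, adjusted p = 0.14), rho = 0.91 (exact permutation p = 0.019, adjusted p = 0.16) and r = 0.85 without DG KO a and KO b. The lowest was with neuron markers, with r = -0.72 (exact permutation p = 0.013, adjusted p = 0.13) and rho = -0.76 (exact permutation p = 0.0093, adjusted p = 0.14), and r was -0.77 without SVZ KO a and KO b. Its r was 0.40 with fibroblast markers, and -0.28 without DG controls a and b, 0.07 with microglial, -0.16 with endothelial and -0.10 with pericyte markers. Abca8b had r = -0.89 with microglial markers (exact permutation p = 0.0054, adjusted p = 0.093) and rho = -0.88 (adjusted permutation p = 0.14). Abca5 had r = -0.91 with precursor markers (exact permutation p = 0.0046, adjusted p = 0.093) and rho = -0.87 (adjusted permutation p = 0.14).

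**Figure D5:**
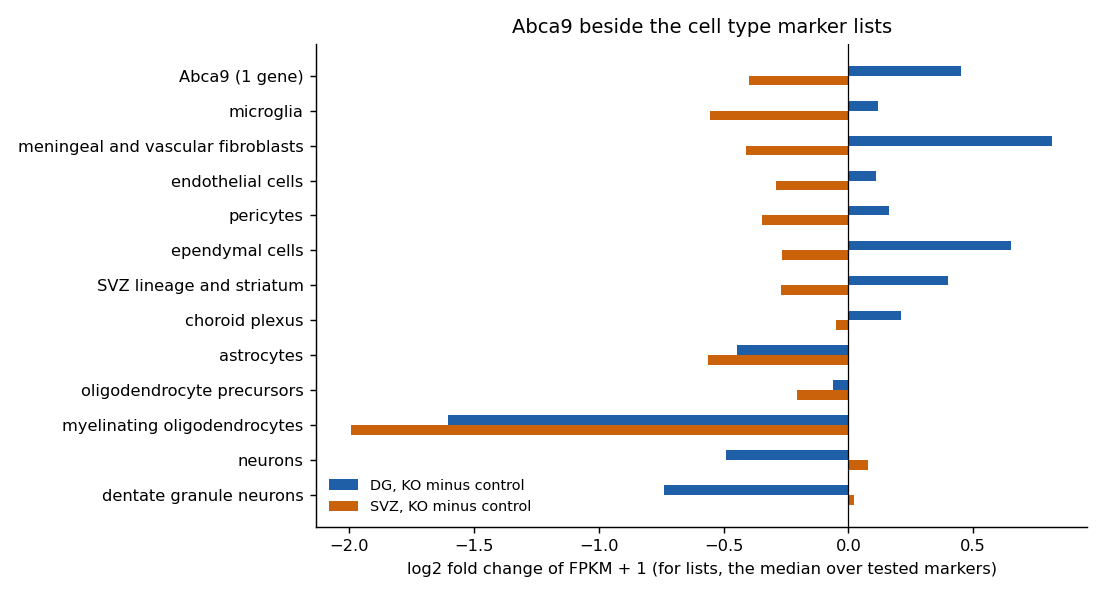
Log2 difference of FPKM + 1, KO minus control (horizontal axis), of Abca9 and, for each marker list, the median over its fitted genes; blue is DG and orange is SVZ. Microglial (0.12 and -0.55), fibroblast (0.82 and -0.41) and ependymal (0.65 and -0.27) medians have the signs of Abca9 (0.45 and -0.40). So do endothelial (0.11 and -0.29), pericyte (0.16 and -0.35), SVZ lineage and striatum (0.40 and -0.27) and choroid plexus (0.21 and -0.05) medians. Astrocyte, precursor and myelin medians are negative in both tissues, and neuron and granule neuron medians in the DG only. The microglial and endothelial DG medians are near that of all fitted genes (0.09).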

How the data were processed

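Per the submitters' processing notes, reads were processed with CASAVA 1.8.4, TopHat2 2.1.0 and Partek on GRCm38 (mm10). The authors deposited, per tissue, FPKM of 40483 transcripts in 6 libraries, named as TMM-scaled (trimmed mean of M-values) per the file names, and a comparison table whose group means (with p-values and signed fold changes, not used here) were used to join rows to transcripts within a relative difference of 0.0001. Every row found a transcript. Of these, 56 DG rows and 64 SVZ rows matched more than 1, and 87 date-named rows were joined on means alone. Unused per-sample columns numbered 0. Transcripts were summed by gene ID.

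Genes averaging at least 0.5 FPKM over a tissue's libraries were fitted as log2(FPKM + 1) with limma 3.58.1 (R 4.3.3, intensity trend), KO minus control, two-sided, with Benjamini-Hochberg adjustment at 0.05; the difference between tissues used 14922 genes. The fit was tested on simulated data. The share of low values within 0.1 of a whole read was 55.5% to 62.6%, where chance gives 20%, too few to recover whole reads, so no count model was used; reads given per library are estimates from these steps. TMM takes most genes as unchanged.

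The members, the pathway lists and the marker lists were chosen with earlier results of these data known. Named were the 5 members, every measured ABCA gene, called genes and the 2 farthest per tissue of each pathway list, flanking genes, the 3 highest markers of a list and the 5 genes most like a member; of these, the text gives those that bear on the members. Alternatives were another minimum, no minimum, another pseudocount, median centring, quantile normalization, a robust prior, the highest transcript row, and each library left out.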

Additional observations from a re-analysis of the deposited data

Results flagged for a closer look

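For Abca9, every KO library lay above the controls in the DG and below them in the SVZ, and the SVZ log2 difference minus that of the DG was -0.85. That difference was not tested, since the gene was chosen for it. Among the genes of the pathway and marker lists, 7 others had groups that did not overlap and went in opposite directions. Over all genes fitted in both tissues 2.08% did so. Nothing is read from the 7 beside that share, since the lists were chosen with earlier results of these data known.

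Npc2, which passes cholesterol out of lysosomes, was 14.9, 19.5 and 17.6 FPKM in DG controls and 21.2, 25.4 and 27.6 in KO libraries, and 20.6 to 24.5 against 18.2 to 19.8 in the SVZ. Its difference of log2 differences was -0.76 (limma adjusted p = 0.10). Cers1, the ceramide synthase of neurons, went the other way, from 32.5 to 37.6 FPKM in DG controls to 24.7 to 27.3 in KO libraries and from 18.9 to 27.1 in SVZ controls to 27.5 to 33.3. Its difference was 0.76 (limma adjusted p = 0.11).

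The fibroblast markers Col1a2, Ogn and Mgp were higher in every DG KO library and lower in every SVZ KO library, with differences of -1.52, -1.36 and -1.84 (limma adjusted p = 0.10, 0.12 and 0.074). Of the neuron markers, Eno2 had 1.0135, which passed (limma adjusted p = 0.028), and Slc17a7 had 1.57 (limma adjusted p = 0.074).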

How the results depend on the processing

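No paired analysis was possible because the columns carry no replicate number. The sign of the Abca9 difference was the same under all 12 alternatives in each tissue, but not all of these could change it. Its groups did not overlap, so leaving out a library could not change the sign. That gave 0.43 to 0.50 in the DG and -0.43 to -0.38 in the SVZ. Having no minimum, a robust prior or the highest transcript row left the value as it was. The other settings gave 0.34 to 0.75 and -0.68 to -0.39. Abca5 changed sign in the DG without control a, KO b or KO c (-0.16 to 0.11), and Abca8a without control b or KO a.

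Calls over all genes depended on the settings. The 108 DG calls became 241 with a minimum of 2 FPKM and 60 with the highest transcript row, and 0 to 3 when a library was left out (2 or 3 without a control, 0 without a KO library). The 1 SVZ call became 0 to 1317 when a library was left out, the highest value being without KO a, with 0 without control a and 2 without KO b. The 5 calls for the difference between tissues became 13 with a minimum of 2 FPKM, 2 with a pseudocount of 0.1, 9 with median centring, 0 with the highest transcript row and 0 to 258 when a library was left out, with 258 without DG KO a, 64 without SVZ KO a and 21 without DG control a. Leaving out a library gave 0 to 4 SVZ calls among the chromosomal neighbours, 0 to 2 among efflux genes and 0 to 2 among sphingolipid genes, each highest without KO a, and 0 DG calls among sphingolipid genes in place of 1. Leaving out a library leaves 2 against 3, and the causes were not tested. Depth limits Abca6, and Abca8a in the SVZ, to about 70.0 reads a library at most, as estimated from the steps.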
